A study of Mus musculus with 2 samples.

Results

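The cytosolic ribosomal protein genes encode the proteins of the ribosome that translates the mRNAs of the cytoplasm. They were taken by name as Rpsa, Rplp0, Rplp1, Rplp2 and every symbol made of Rpl or Rps and a digit. Kinase genes (Rps6k) and pseudogene names (-ps) were left out. The rule found 86 of the 32285 genes in the files, 52 with large-subunit and 34 with small-subunit names. It takes in a retrogene copy of Rps27 (Rps27rt), several paralogs, and Rps19bp1, which encodes a binding partner of Rps19 rather than a subunit.

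Spleen NK cells of Mus musculus were sorted by flow cytometry and profiled as single cells by counting unique molecular identifiers (UMIs) at transcript 3′ ends. There was 1 library from mice labelled control and 1 from mice labelled dietary restriction (DR), so no difference between the libraries had a replicate check and no test was possible. Strain, genotype, age, number of mice, pooling, the duration of the diet and the sorting gate are not given in the sources used here. From the control animals came 44526828 UMIs in 5702 barcodes (median 7151.5 each). The DR library was shallower per cell, at 42134212 UMIs in 6287 barcodes (median 5782). The libraries shared 13 barcode sequences. After filtering, 5225 control and 5785 DR cells were kept. Ratios of single genes and their medians are given on the log2 scale. Ratios of the ribosomal protein share are plain quotients, not log2 values. Both have 95% intervals, where given, that cover counting error only.

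Each ribosome joins a small subunit, which reads the mRNA, to a large subunit, which forms the peptide bond, and its proteins are needed in matched amounts. The mRNAs of ribosomal proteins are known for a pyrimidine tract at their 5′ end, the TOP motif, through which mTORC1 controls how much of them is translated. In lymphocytes the demand for ribosomes follows growth and activation, and resting mature NK cells are known as small cells with a modest rate of translation.

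The start windows below show the bases around a listed transcript start for some of the genes named in the results. Each window runs from 10 bases before to 20 bases after a RefSeq transcript start in GRCm38.p6, and capitals mark the longest unbroken run of C and T. The 10 bases before the start are not part of the listed mRNA, and the marked runs of Rps27l and Rps19 lie wholly within them.
Rpl35 (chr2:39005112-39005141, minus strand): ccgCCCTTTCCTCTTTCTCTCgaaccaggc
Rps18 (chr17:33955646-33955675, minus strand): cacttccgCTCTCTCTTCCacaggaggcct
Rpl22l1 (chr3:28805498-28805527, plus strand): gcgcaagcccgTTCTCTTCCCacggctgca
Rps24 (chr14:24490668-24490697, plus strand): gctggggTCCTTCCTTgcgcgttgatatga
Rps27 (chr3:90213629-90213658, minus strand): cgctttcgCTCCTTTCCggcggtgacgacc
Rps27l (chr9:66946076-66946105, plus strand): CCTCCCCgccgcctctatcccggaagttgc
Rpl12 (chr2:32961702-32961731, plus strand): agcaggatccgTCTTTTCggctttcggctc
Rps19 (chr7:24884582-24884611, plus strand): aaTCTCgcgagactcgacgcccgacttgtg
Of the 86 genes, 66 had an entry in the RefSeq table, with 78 transcript starts. The letters CTTTC were searched only on the strand that reads as the mRNA. They stood in 16 of these 78 windows (20.5%), against 3.74% of the 32851 windows of 27025 genes in the table. A run of at least 7 pyrimidines stood in 34 of the 78 windows (43.6%), against 17.9% of all windows, and such runs can overlap the searched letters. The letters were present in the windows of Rpl35, Rps27 and Rpl12 and absent from the other windows printed, and for genes with several listed starts 1 is shown. These matches describe the windows and no more.

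Cell classes were named from marker genes after clustering without the ribosomal protein genes. NK-like cells, 4286 in the control and 4164 in the DR library, carried Ncr1, an activating NK receptor, at 1237 and 1071 CPM (counts per 1000000 UMIs), and Prf1, perforin, at 1309 and 1051 CPM. ILC1-like cells (316 and 431) carried Il7r at 1164 and 1152 CPM and almost no Eomes (37.0 and 33.4 CPM, against 339 and 338 CPM in NK-like cells). B-like cells (122 and 447) carried Cd79a at 3045 and 3177 CPM. T-like cells carried Cd3e at 602 CPM, with 289 cells in the DR library and 3 in the control library, so that their values come from the DR library alone. NK-like cells were divided by UMIs of Cd27, a receptor of less mature NK cells, and of Itgam (CD11b), an integrin of mature ones. There were 470 control and 715 DR cells with Cd27 only, 1041 and 961 with both, 2186 and 1551 with Itgam only, and 589 and 937 with neither.

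Ribosomal protein transcripts made up 19.3% of all UMIs of control NK-like cells (Clopper-Pearson interval 19.28 to 19.30) and 21.5% of those of DR NK-like cells (21.44 to 21.47). The share was lowest in NK-like cells with Itgam only, at 17.1% in the control and 18.9% in the DR library. It was 18.9% and 19.96% in cells with neither gene, 21.0% and 22.9% in cells with both, and 23.7% and 25.01% in cells with Cd27 only. Over all depths together this order was the same in the 2 libraries, and in each stage the DR value was the higher one. ILC1-like cells stood between, at 21.7% and 23.7%. B-like cells were at 32.7% and 32.8%, nearly equal in the libraries, and T-like cells of the DR library at 38.6%.

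**Figure D1:**
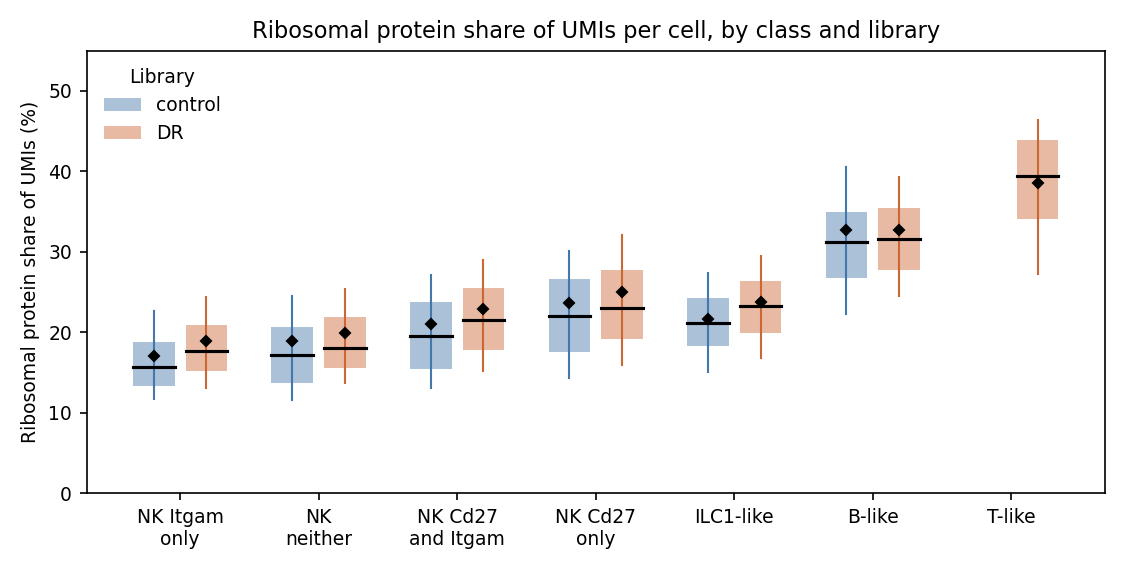
Share of each cell's UMIs from ribosomal protein genes (y axis, percent) by cell class and library; black lines are medians over cells, boxes the interquartile range over cells, thin lines the span between the outer deciles and diamonds the share of the summed UMIs. NK-like cells with Itgam only sit lowest, with cell medians of 15.7% in the control and 17.7% in the DR library, and T-like cells highest, with a median of 39.4%.

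Single cells overlapped widely between stages although the summed shares stood apart. In the control library the interquartile range over cells ran from 13.3% to 18.7% for Itgam only and from 17.5% to 26.7% for Cd27 only. In the DR library these ranges were 15.1% to 21.0% and 19.1% to 27.7%. B-like cells began where most NK-like cells ended, with interquartile ranges of 26.7% to 34.9% in the control and 27.8% to 35.5% in the DR library.

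The ribosomal protein share went with the number of UMIs per cell. In control NK-like cells it was 14.9% in cells of up to 4000 UMIs, 16.1% in cells of 4000 to 8000 and 22.4% in deeper cells. In DR NK-like cells it was 17.0%, 19.99% and 26.1%. Cells with Cd27 only were also deeper, at medians of 8478.5 UMIs in the control and 6435 in the DR library, than cells with Itgam only, at 6702.5 and 5036. The stages kept their outer order within each depth range with at least 50 cells. In cells of 4000 to 8000 UMIs the share was 18.7% for Cd27 only and 15.5% for Itgam only in the control library, and 22.6% and 18.6% in the DR library. The inner order was not kept. Over 8000 UMIs, cells with neither gene stood at 23.4% (control) and 27.4% (DR), above cells with both at 22.8% and 25.4%. Cells with neither were the shallowest stage, at medians of 6099 and 4635 UMIs, and cells with both the deepest, at 8576 and 6616.

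**Figure D2:**
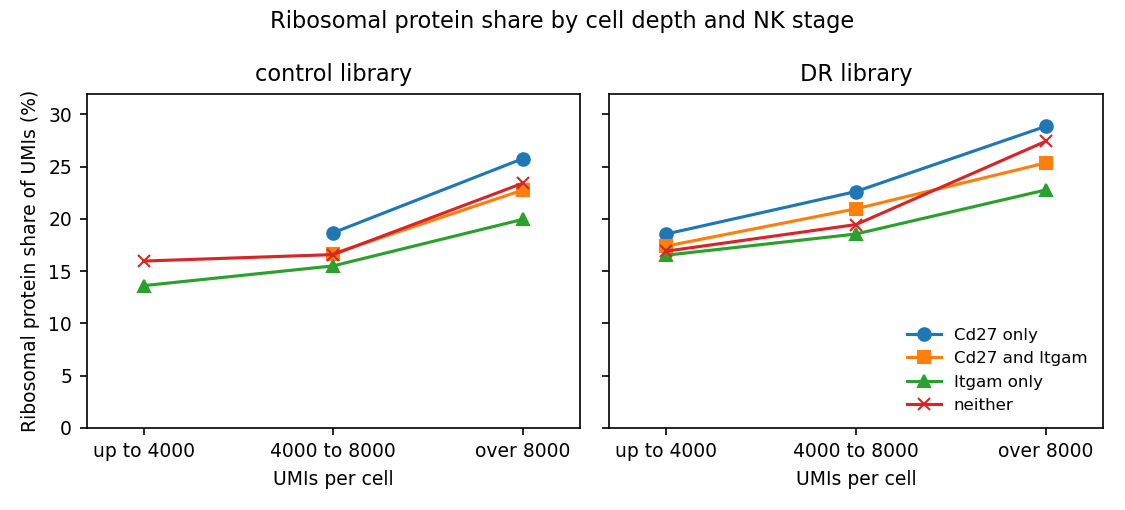
Ribosomal protein share of UMIs (y axis, percent) in NK-like cells grouped by UMIs per cell (x axis) and by stage, one panel per library; groups under 50 cells are not drawn. Every line ends higher than it starts, and cells with Cd27 only lie above cells with Itgam only at each depth drawn, for example at 25.8% against 19.96% in control cells over 8000 UMIs.

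The first comparison set the DR library against the control library in NK-like cells. Most ribosomal protein genes were slightly higher in the DR library, and few passed the limit of size used here, a level at least 25% above or 20% below the other, with an interval that leaves out equality. Genes had to average at least 20 CPM to be described. Of the 86 genes, 83 reached 20 CPM in this comparison and 72 of them had a ratio above 0. The call was made for 2 genes in the higher direction, against 3.17% of all 5835 genes described, and for 0 in the lower direction, against 7.68%. The median log2 ratio of the 83 genes was 0.15, beside -0.06 for all genes. Within the stages the call was made in the higher direction for 0 genes with Cd27 only (all genes 4.71%), 1 with both (Rps18; 4.62%), 3 with Itgam only (Rps18, Rpl12 and Rpl14; 4.19%) and 0 with neither (4.83%), and in the lower direction for 0 in every stage (all genes 9.9%, 9.13%, 8.68% and 10.8%). In ILC1-like cells Rpl12 alone was called higher (4.36% of all genes), and in B-like cells 0 genes were (4.05%).

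The 2 genes called were Rps18 and Rpl12, 2.41% of the 83 genes, a share below that of all genes. Rps18, a protein of the small-subunit head, was at 2294 CPM in the control and 2933 CPM in the DR library, a log2 ratio of 0.35 (0.34 to 0.37). Rpl12, which sits at the base of the stalk that recruits translation factors, was at 1785 and 2265 CPM, a ratio of 0.34 (0.33 to 0.36). Just short of the limit lay Rpl14 (1404 and 1732 CPM, 0.30), Rpl3 (1585 and 1950 CPM, 0.30), a protein that reaches toward the peptidyl transferase centre, and Rpl8, Rpsa and Rps16, all between 0.27 and 0.28.

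Rpl23a went the other way. This protein lies at the exit of the peptide tunnel, where it is a docking point for the signal recognition particle, and its gene lies on chromosome 11 at 78180932 to 78183584 of GRCm38, minus strand. Its NK-like level was 1848 CPM in the control and 1557 CPM in the DR library, a ratio of -0.25 (-0.27 to -0.23). It was lower in the DR library in ILC1-like cells too, at 1981 and 1575 CPM (-0.33, -0.39 to -0.28), and in B-like cells, at 2157 and 1678 CPM (-0.36, -0.42 to -0.30). It was called lower in both of these classes, where 9.78% and 8.68% of all genes were. In each of these 3 classes it was the ribosomal protein gene with the lowest ratio. In NK-like cells of 4000 to 8000 UMIs alone its ratio was -0.06, against a median of 0.30 for the 83 genes in those cells. Other genes below 0 lay much closer to it, among them Rps27l at -0.12, Rpl22l1 at -0.11, Rpl41, the shortest ribosomal protein, at -0.09, and Rpl31 at -0.08.

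**Figure D3:**
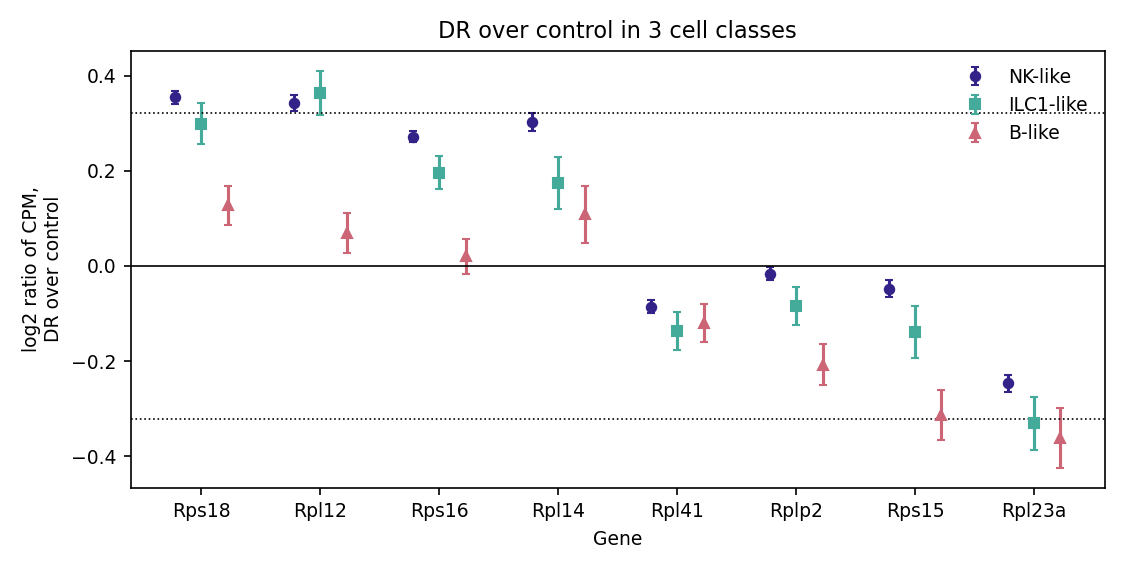
Log2 ratio of DR over control CPM (y axis) for 8 ribosomal protein genes in NK-like, ILC1-like and B-like cells, with 95% counting intervals; dotted lines mark the limits of 25% higher and 20% lower. Rps18 and Rpl12 were above 0.29 in NK-like and ILC1-like cells and at 0.13 and 0.07 in B-like cells, Rpl23a was below -0.24 in all 3 classes, and with median-of-ratios scaling the NK-like values of Rplp2 and Rps15 turn slightly positive.

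The libraries differed in their mix of stages. With each stage given the same weight in both libraries the ratio of the ribosomal protein share, 1.11 over all NK-like cells, was 1.09 with the control mix, 1.08 with the DR mix and 1.08 with equal weights. In cells of 4000 to 8000 UMIs alone the ratio was larger, at 1.24, and 39 of 83 genes were called higher where 4.30% of all genes were. That range was chosen after the values were seen. It left out 231 control cells of up to 4000 UMIs and 1527 over 8000, against 690 and 682 in the DR library. The range thus held unlike parts of the 2 libraries, whose depth per cell differed, and its ratio is not one between matched cells. Transcripts of B cells were more frequent in DR than in control NK-like cells, with all 9 markers of the B list found in both libraries at a summed 118 CPM in the control and 241 CPM in the DR library, and with Igkc at 15.3 and 80.2 CPM. All 4 plasma cell markers summed to 2.76 and 9.93 CPM. Of the 10 T cell markers 8 were found in the control library (344 CPM in sum, with Cd3e and Cd8b1 at 0) and all 10 in the DR library (325 CPM, with Cd3e at 0.764 CPM). In the 2032 control and 1690 DR NK-like cells without a UMI of 28 marker genes of other lineages the ratio of shares was 1.13. Of the UMIs of NK-like cells, 1.69% (control) and 2.49% (DR) were mitochondrial, and with these left out of the total the ratio of shares was 1.12.

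The second comparison set NK-like cells with Cd27 only against those with Itgam only, once in each library. Nearly the whole family was higher in cells with Cd27 only. In the control library 72 of 83 genes were called higher, against 9.02% of all genes, with a median of 0.46 beside -0.10 for all genes. In the DR library 63 were called higher, against 5.13%, with a median of 0.38 beside -0.10. In both libraries 62 genes were called higher, against 4.20% of all genes, and 0 lower, against 8.61%. In single libraries 0 were called lower as well, against 19.3% in the control and 13.8% in the DR library. The ratio of the summed shares was 1.39 (1.38 to 1.39) in the control and 1.32 (1.317 to 1.323) in the DR library. Cells with both genes also lay above cells with Itgam only, with 26 genes called higher in both libraries, against 1.94% of all genes, and 0 lower, against 1.99%.

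Rps20 and Rps2, both of the small subunit, had the highest ratios. Rps20, a head protein, was at 3144 CPM with Cd27 only and 1825 CPM with Itgam only in the control library (0.78, 0.75 to 0.81), and at 3391 and 2175 CPM in the DR library (0.64, 0.61 to 0.67). Rps2, at the mRNA entry, was at 2359 and 1418 CPM in the control (0.73) and 2638 and 1719 CPM in the DR library (0.62). Rps18 followed at 0.72 and 0.59, Rps19 at 0.72 and 0.59, Rpl10a of the L1 stalk at 0.69 and 0.60, Rpl12 at 0.73 and 0.56, Rps15a at 0.68 and 0.58 and Rplp0 at 0.66 and 0.59. For all of these the cells with both genes lay between the other stages, as for Rps20 at 2562 CPM in the control and 2934 CPM in the DR library.

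The stalk proteins, which recruit the translational GTPases, did not have equal ratios. Rplp0, which anchors the stalk, was at 2839 against 1799 CPM in the control and 2907 against 1927 CPM in the DR library. Rplp1 was at 5387 and 3621 CPM in the control (0.57) and 5556 and 3863 CPM in the DR library (0.52), while Rplp2 was at 3362 and 2536 CPM (0.41) and 3208 and 2489 CPM (0.37). Among the genes with the smallest ratios, Rps25, which some viral mRNAs need to start translation, was at 1579 and 1384 CPM in the control (0.19) and 1661 and 1513 CPM in the DR library (0.14). Rps29 was at 0.26 and 0.22, Rps27l at 0.29 and 0.14 and Rpl31 at 0.31 and 0.21, all short of the limit in both libraries. These genes were taken from those with the same sign in both libraries. Over all 83 genes the lowest ratio was 0.18 in the control and -0.25 in the DR library, where 82 were above 0.

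Genes with roles outside the ribosome lay within this range. Rpl5 and Rpl11, which with 5S rRNA form the particle that binds Mdm2, were at 0.37 and 0.47 in the control and 0.31 and 0.36 in the DR library. Rps6, the substrate of the S6 kinases, was at 0.53 and 0.40, Rpsa, also known as a laminin receptor, at 0.63 and 0.53, and Rps27a, made as a fusion with ubiquitin, at 0.52 and 0.40. The tunnel-exit proteins Rpl17, Rpl19, Rpl22, Rpl23a, Rpl26, Rpl31, Rpl35 and Rpl39 ranged from 0.31 (Rpl31) to 0.60 (Rpl22) in the control and from 0.21 (Rpl31) to 0.47 (Rpl22) in the DR library. As a share of the ribosomal protein UMIs alone, 0 of the 83 genes passed the limit in both libraries in either direction. In cells of 4000 to 8000 UMIs the medians were 0.27 in the control and 0.28 in the DR library, and 19 genes in place of 62 were called higher in both. In single libraries 21 (control) and 30 (DR) of the genes were called higher in these cells, against 5.49% and 4.15% of all genes. The share of all genes called higher in both libraries in these cells is not given here.

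**Figure D4:**
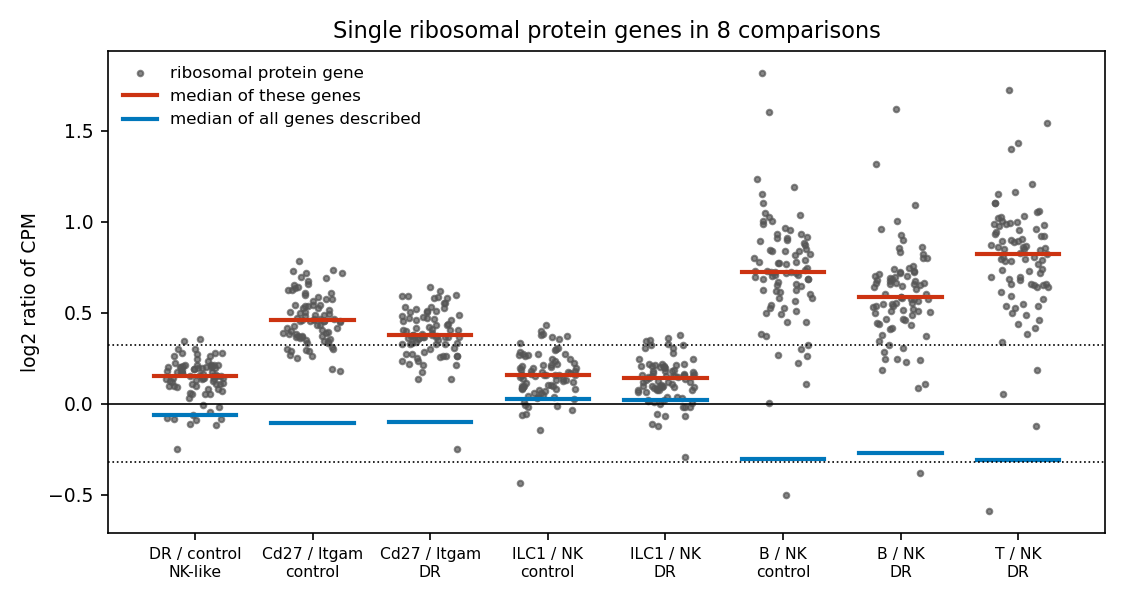
Log2 ratio of CPM (y axis) of each ribosomal protein gene that reached 20 CPM in 8 comparisons, with the median of these genes in red, the median of all genes described in blue and dotted lines at 25% higher and 20% lower. The red lines stand at 0.15 for DR over control, 0.46 and 0.38 for Cd27 only over Itgam only, 0.73 and 0.59 for B-like and 0.82 for T-like over NK-like cells.

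The third comparison set ILC1-like, B-like and T-like cells against NK-like cells of the same library. ILC1-like cells differed little in total, with a ratio of the summed shares of 1.12 (1.121 to 1.127) in the control and 1.10 (1.102 to 1.108) in the DR library. There were 8 genes called higher in the control library, against 16.6% of all genes, and 7 in the DR library, against 15.3%. The 7 genes called in both, against 10.8% of all genes, were Rpl12, Rps20, Rps21, Rps9, Rpl22, Rpl29 and Rpl38, a share of the family below that of all genes. Rps20 was at 3034 CPM in ILC1-like and 2248 CPM in NK-like cells of the control library (0.43), and at 3396 and 2662 CPM in the DR library (0.35). With the cluster led by Batf3 and Cd3d counted as NK-like, a choice made after its values were seen, 0 genes were called higher in both libraries.

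The paralogs Rpl22 and Rpl22l1 went in opposite directions in ILC1-like cells. Rpl22, needed in mice for the development of αβ T cells, was at 1779 CPM in ILC1-like and 1376 CPM in NK-like cells of the control library (0.37, 0.33 to 0.41), and at 1791 and 1425 CPM in the DR library (0.33, 0.29 to 0.37). Rpl22l1, which Rpl22 is known to repress in mice, was at 455 and 615 CPM in the control (-0.44, -0.52 to -0.35), and at 465 and 569 CPM in the DR library (-0.29, -0.37 to -0.21). Rpl22l1 was called lower in the control library, where 12.8% of all genes were, and short of the limit in the DR library, where 11.7% were, so that 0 genes were lower in both against 8.31%. Its share of the ribosomal protein pool was lower past the limit in both libraries, at -0.60 and -0.44, as that of no other gene of the 83 was. Between NK stages the pair moved together, Rpl22 at 0.60 and 0.47 and Rpl22l1 at 0.49 and 0.48.

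In B-like cells 75 of 83 genes were called higher than in NK-like cells in the control library, against 17.3% of all genes, and 73 in the DR library, against 17.8%. In each library 1 was called lower, against 44.4% and 45.9%. In both libraries 71 were higher, against 14.5%, and 1 was lower, against 39.1%. The medians were 0.73 and 0.59, beside -0.30 and -0.27 for all genes. In T-like cells of the DR library 79 genes were called higher, against 12.7% of all genes, and 1 lower, against 47.2%, with a median of 0.82 beside -0.31. Relative to the median of all genes the members' medians were 1.03 and 0.86 in B-like and 1.13 in T-like cells. B-like cells of the control library were deeper than its NK-like cells, at medians of 8737.5 and 7071 UMIs, as were those of the DR library, at 6862 and 5367, and T-like cells, at 8652.

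The family did not move as a block in these lymphocytes. Rps19, the small-subunit protein most often mutated in Diamond-Blackfan anaemia in humans, was at 5529 CPM in B-like and 1566 CPM in NK-like cells of the control library (1.82, 1.79 to 1.85). It was at 5657 and 1840 CPM in the DR library (1.62, 1.60 to 1.64) and at 6074 CPM in T-like cells (1.72, 1.70 to 1.75). Rps20 was at 6826 and 2248 CPM in the control (1.60), at 6643 and 2662 CPM in the DR library (1.32) and at 7191 CPM in T-like cells (1.43). The highest NK stage was far below these levels, with 2263 CPM of Rps19 and 3391 CPM of Rps20 in DR cells with Cd27 only.

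Rpl12 and the stalk anchor Rplp0 differed between the 2 lymphocyte classes. B-like cells held Rpl12 at 4197 CPM (control) and 4402 CPM (DR) with ratios of 1.23 and 0.96 over NK-like cells, and T-like cells at 6594 CPM (1.54, 1.52 to 1.57). Rplp0 was at 4144 and 4082 CPM in B-like cells (0.93 and 0.82) and at 6096 CPM in T-like cells (1.40, 1.37 to 1.43). Rpl5 had the same order, at 2375 and 2133 CPM in B-like and 3435 CPM in T-like cells. Rpl35, a tunnel-exit protein, was close in both, at 2148 and 2227 CPM in B-like and 2406 CPM in T-like cells, against 939 and 1043 CPM in NK-like cells.

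Rps27l was the gene called lower in both classes. It is a paralog of Rps27 and a known target of p53. It was at 205 CPM in NK-like and 145 CPM in B-like cells of the control library (-0.50, -0.71 to -0.30), at 189 and 145 CPM in the DR library (-0.38, -0.51 to -0.25), and at 126 CPM in T-like cells (-0.59, -0.76 to -0.43). With median-of-ratios scaling its ratio kept its sign and was no longer called. Its partner Rps27 was at 4191 and 4745 CPM in NK-like, 7511 and 7563 CPM in B-like and 8383 CPM in T-like cells. Rpl36a and Rpl36al formed a second uneven pair: Rpl36a was at 973 CPM in NK-like and 2163 CPM in B-like control cells (1.15), whereas Rpl36al was at 770 and 829 CPM (0.11). In the DR library the ratios were 0.90 and 0.28, and in T-like cells 1.15 and 0.42.

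Set against the ribosomal protein pool rather than all UMIs, the make-up of the pool differed. Past the limits of 25% higher or 20% lower, 5 genes had a larger share of the pool in B-like cells of both libraries and 8 a smaller one, and in T-like cells 5 had a larger and 11 a smaller one. Past these limits in both classes, the larger shares were those of Rps19, Rps20, Rpl12 and Rpl35, and the smaller ones those of Rps27l, Rpl36al, Rpl27 and Rpl10. Rpl10, the late-joining protein that must be in place before the subunits pair, was at 2587 and 3229 CPM in control NK-like and B-like cells and at 2850 and 3028 CPM in the DR library, so that its share of the pool was lower by log2 ratios of -0.44 and -0.52. Large-subunit genes summed to 1.29 times the UMIs of small-subunit genes in control NK-like cells and 1.26 times in DR NK-like cells. This quotient was 1.19 and 1.18 in B-like and 1.15 in T-like cells.

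**Figure D5:**
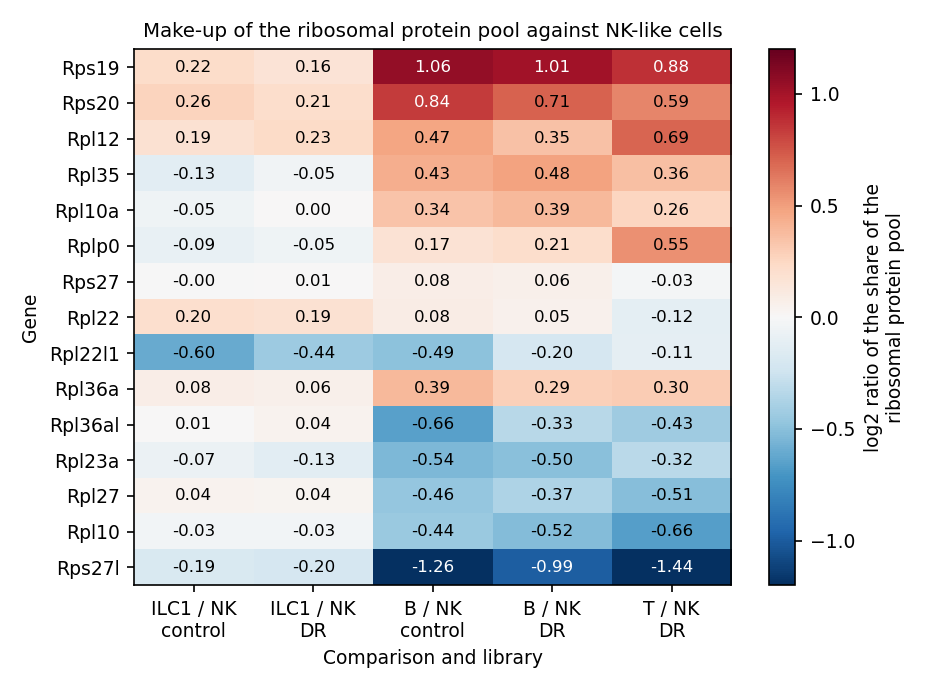
Log2 ratio of each gene's share of ribosomal protein UMIs in ILC1-like, B-like and T-like cells over NK-like cells of the same library, for 15 genes named in the text (colour scale and printed values). Rps19 stands at 1.06 and 1.01 in B-like and 0.88 in T-like cells, and Rps27l at -1.26, -0.99 and -1.44, while ILC1-like columns stay within 0.26 of 0 except for Rpl22l1.

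Levels within the family spanned a wide range in NK-like cells. UMIs at 3′ ends count each transcript once whatever its length, so the levels are not per length, and capture can still differ between genes. Rps24 had the highest level, at 5403 CPM in the control and 5952 CPM in the DR library, followed by Rps29 (4551 and 5061 CPM), Rps27 (4191 and 4745 CPM), Rplp1 (4245 and 4541 CPM) and Rpl13 (3753 and 4350 CPM). Rps27 and Rplp1 changed places between the libraries. Among the genes that reached 20 CPM the lowest were Rps27l, Rpl7l1 (60.8 and 57.6 CPM) and Rps19bp1 (32.1 and 31.98 CPM). Below 20 CPM were 3 paralogs known mostly from testis or muscle: Rpl39l with 26 UMIs in NK-like cells of the control library and 20 in those of the DR library, under 1 CPM beside 3207 and 3388 CPM of Rpl39, and Rpl10l and Rpl3l with 0 UMIs. Ribosomal protein genes have many processed copies in the genome, and how reads matching several copies were counted is not given in the sources used here, so levels of single genes, and of Rps27 and Rps27rt (198 and 228 CPM) in particular, are uncertain.

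Genes that work with ribosomal proteins were described from lists of related genes. Fau and Rack1, which also encode ribosomal proteins, were both called higher in B-like and T-like cells. For Cd27 only over Itgam only, Rack1 was at 0.50 in the control and 0.42 in the DR library, while Fau stayed at 0.27 and 0.21. A further list held 17 translation and other genes whose mRNAs are known or thought to begin with a pyrimidine tract. Of these 17, 7 were called higher with Cd27 only in the control, where 9.02% of all genes were, and 6 in the DR library, against 5.13%. In B-like cells 6 were called higher in each library, against 17.3% (control) and 17.8% (DR) of all genes, and in T-like cells 11, against 12.7%. Of all genes 19.3% (control) and 13.8% (DR) were called lower for the stages, 44.4% and 45.9% for B-like and 47.2% for T-like cells. In these comparisons 0 of the 17 genes were called lower. Among them Npm1, a nucleolar chaperone, was at 804 and 463 CPM with Cd27 only and with Itgam only in the control (0.80), and at 719 and 497 CPM in the DR library (0.53). Of 6 host genes of small nucleolar RNAs, 5 reached 20 CPM, and all 5 were called higher with Cd27 only in both libraries (4.20% of all genes), in B-like cells of both libraries (14.5%) and in T-like cells (12.7%). Gas5, the best expressed, was at 327 and 175 CPM in the control (0.90) and 347 and 216 CPM in the DR library (0.68), and at 561 and 638 CPM in B-like cells.

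The genes whose level across the 13 sums of library and class was most like the summed ribosomal protein level were Eef1b2 (Pearson r 0.985), Naca (0.980), Gas5 (0.980), Rack1 (0.980) and Nme2 (0.967), of 5759 genes ranked. Eef1b2, an exchange factor of the elongation factor eEF1A, ran from 713 CPM in control cells with Itgam only to 1982 CPM in T-like cells. The 13 points share 2 libraries and their depths, and the NK stages share cell clusters, so these values describe the sums and have no test.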

How the data were processed

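The authors deposited raw UMI counts per gene and barcode, written by Cell Ranger 5.0.1 per the file headers, whereas the submitters' processing notes name Cell Ranger 2.1.1 and the build mm10. The 10x Genomics 3′ chemistry is named per the labels' protocols. Barcodes under 500 genes or over 10% mitochondrial UMIs were removed (215 control, 167 DR). Doublets were scored with Scrublet in scanpy 1.11.5, and the cells with the top scores were removed (262 and 335 cells, 4.77% and 5.47%), a limit set from the cell load after the data were seen. Cells were clustered on 2000 variable genes without the ribosomal protein genes (30 components, 15 neighbours, Leiden resolution 0.6) into 14 clusters. Clusters were named where 3 or more markers and 50% of a list were present in 1 lineage alone. A cluster stayed unnamed where its leading genes held more markers of another lineage (the Batf3-led cluster, with the T cell gene Cd3d) or where its cells were shallow with no marker among the leading genes. Counts were summed per library and class, as CPM with exact Poisson, Clopper-Pearson and conditional binomial intervals (scipy 1.17.1). A stage needed 1 UMI. Named genes were the highest and lowest by level or ratio in each comparison, plus listed paralogs and functional groups. The members and lists were chosen with earlier results of these data known. Alternatives varied depth, scaling, filters, classes and doublets. Myeloid-like cells (19 DR) and 4 unnamed clusters were in no comparison. Values of some genes that the naming rules select are not reported here.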

Additional observations from a re-analysis of the deposited data

Results flagged for a closer look

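For 14 ribosomal protein genes the counting interval of DR over control lay on one side of 0 in NK-like cells and on the other in B-like cells. The difference between the classes was not tested, and all of these ratios were within the limits of 25% higher and 20% lower. How many of all genes met the same rule is not given here, so the count says nothing particular about the family. In NK-like cells 13 of the genes were above 0 and in B-like cells below it. The B-like log2 ratios were -0.16 for Rpl5, -0.14 for Rpl22, -0.10 for Rps21, -0.10 for Rplp1, -0.10 for Rps12, -0.093 for Rpl10, -0.091 for Rpl38 and -0.086 for Rps28. They were -0.055 for Rpl34, -0.051 for Rps7, -0.042 for Rpl37, -0.039 for Rps20 and -0.036 for Rpl23. The largest NK-like value among these was that of Rps20, at 0.24. Rpl36al had the opposite pattern, at -0.06 in NK-like and 0.11 in B-like cells. The pattern was not particular to NK-like cells. Rps21, Rps20, Rps12, Rpl23, Rpl38, Rps7 and Rpl10 were also above 0 in ILC1-like cells by the same rule.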

How the results depend on the processing

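Each ratio of the ribosomal protein share stayed above 1 under the alternatives run, while the balance of genes called higher and lower turned in some. The ratios of the ribosomal protein share, in the order DR over control, Cd27 only over Itgam only (control, DR), ILC1-like (control, DR), B-like (control, DR) and T-like over NK-like cells, were 1.11, 1.39, 1.32, 1.12, 1.10, 1.69, 1.53 and 1.80 as reported. Cells thinned to 3000 UMIs gave 1.12, 1.28, 1.23, 1.17, 1.14, 1.73, 1.57 and 1.89. Thinning leaves the expected share of each cell as it was. Apart from sampling, it changes the class ratios only by weighting cells equally and dropping those under 3000 UMIs. It therefore cannot tell whether those ratios depend on depth. Stages were set anew from the thinned counts, so the stage ratios do not differ from the main ones by depth alone. Cells with both markers went from 1041 to 325 in the control and from 961 to 347 in the DR library. Cells with neither went from 589 to 1591 and from 937 to 1691. Without mitochondrial UMIs the DR, ILC1-like, B-like and T-like ratios were 1.12, 1.13, 1.11, 1.71, 1.55 and 1.81. Classes set by marker UMIs gave 1.11, 1.40, 1.34, 1.10, 1.08, 1.71 and 1.499. Without doublet removal they were 1.12, 1.36, 1.31, 1.13 (ILC1-like, control) and 1.72 (T-like), and the B-like cluster had no name. With pseudogene-named rows and ribosomal protein genes outside the naming rule added they were 1.11, 1.38, 1.32, 1.69 (B-like, control) and 1.79 (T-like). Stages weighted equally gave 1.08 for DR over control. At least 2 UMIs for a stage gave 1.47 and 1.42. Without cells holding transcripts of other lineages the first 3 were 1.13, 1.34 and 1.24.

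Alternatives added after the data were seen were cells of 4000 to 8000 UMIs (1.24, 1.205 and 1.22) and the Batf3-led cluster counted as NK-like (1.12, 1.43, 1.37, 1.10, 1.07, 1.66, 1.49 and 1.75).

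Counts of genes called moved more. For DR over control, 2 higher became 9 with median-of-ratios scaling, 4 after thinning, 39 in cells of 4000 to 8000 UMIs and 0 as a share of the ribosomal protein pool, where 1 was lower. For the stages, 62 higher in both libraries became 30 after thinning with the stages set anew, 19 in that UMI range and 0 within the pool. For ILC1-like cells, 7 higher became 3 with median-of-ratios scaling, 3 without doublet removal, 0 within the pool and 0 with the Batf3-led cluster, and 0 lower became 1 in the last 2. For B-like cells, 71 higher became 5 within the pool, and 1 lower became 0 with median-of-ratios scaling, 0 after thinning and 8 within the pool. For T-like cells, 79 higher became 5 and 1 lower became 11 within the pool, and 0 were lower with median-of-ratios scaling. More genes were thus called lower than higher within the pool for DR over control and for ILC1-like, B-like and T-like cells, and with the Batf3-led cluster for ILC1-like cells. Within the pool the denominator itself holds the family, so a shared difference drops out. The cause of the other differences was not tested. Shares of all genes called are given here for the UMI range alone, so elsewhere a loss of calls cannot be read as particular to the family. In that range 4.30% of all genes were called higher for DR over control. For the stages 5.49% (control) and 4.15% (DR) were, in single libraries, and the share in both libraries is not given.

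Median-of-ratios scaling moved the median of all genes by up to 0.31 (T-like), and changed the sign of 3 genes for DR over control in NK-like cells, Rplp2, Rps15 and Rps19bp1. For DR over control it changed the sign of 8 genes in B-like cells, 4 in ILC1-like cells and 2 or 3 in each stage. It changed the sign of 2 genes (Rps27l and Rpl7l1) for cells with both markers over Itgam only in the DR library, of 2 (control) and 4 (DR) for ILC1-like and of 1 for T-like over NK-like cells. For Cd27 only over Itgam only and for B-like over NK-like cells it changed 0. No paired analysis was possible because each group has 1 library. Depth limits Rpl39l, Rpl10l and Rpl3l, whose counts give no comparison. The share of ribosomal protein UMIs went with the depth of cells, which differed between libraries and stages.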

Other observations

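A small cluster without a name, with 23 control and 26 DR cells, had almost no ribosomal protein transcripts. They made up 2.12% of its UMIs in the control and 2.94% in the DR library, with medians of 1332 and 1114 UMIs per cell. The nuclear RNA Malat1 took 14.9% and 14.2% of its UMIs, against 3.14% in NK-like cells of each library, and mitochondrial transcripts 5.93% and 6.74%.

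A cluster led by Batf3, Kit and Cd3d, with 191 control and 226 DR cells, also stayed unnamed. Its ribosomal protein share was 26.0% in the control and 28.8% in the DR library, with medians of 11160 and 9438 UMIs per cell. This was above every NK-like stage over all depths together. NK-like cells with Cd27 only and over 8000 UMIs were close to it, at 25.8% and 28.9%. Inside the NK-like class the clusters were not alike either. The cluster led by Spp1, Tnfrsf9 and Srm, a spermidine synthase gene, held 246 control and 117 DR cells and stood at 23.5% and 26.6%. The cluster led by Cx3cr1 and including Klrg1 among its leading genes held 2300 control and 481 DR cells and stood at 16.0% and 17.0%. A cluster with Mcam and Khdc1a among its leading genes held 458 control and 2092 DR cells and stood at 17.9% and 18.5%. It shared the leading genes Ly6c2, Rac3 and Cma1 with the cluster led by Cx3cr1. Most cells of one came from the DR library and most of the other from the control library. Whether they are one population split by library was not tested.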
